A study of Homo sapiens with 6 samples.

Results

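The genes described here encode the ligands, receptors, co-receptors and antagonists of Wnt signalling, with a few of its cytoplasmic and nuclear components. They were chosen by name: WNT and FZD genes with a number, SFRP1 to SFRP5, DKK1 to DKK4, RSPO1 to RSPO4, LGR4 to LGR6, LRP5, LRP6, FRZB, WIF1, RNF43, ZNRF3, AXIN1, AXIN2, DAAM1, DAAM2, LEF1, TCF7, TCF7L1 and TCF7L2. Of 58 such genes, 57 sat on an array feature that carries their symbol alone, among 18418 genes named in that way on the array; TCF7 was not analysed here. A feature, or transcript cluster, is the set of probes that reads 1 transcript region, and DKK3 alone had more than 1 cluster, of which the one with the higher mean was used.

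RNA from 3 human breast cancer lines was measured on 6 Affymetrix arrays of the Human Gene 1.0 ST type, 2 for each line. The lines were 231BrM-2a, a derivative of MDA-MB-231 selected in mice for growth in brain, 231BoM-1833, a derivative selected in mice for growth in bone, and MDA-MB-231, the parental triple-negative line. All were grown in culture without a named treatment, and from each the cells without CD24 and with CD44 and ESA (the EPCAM protein) were taken with magnetic beads, a surface profile used to enrich breast cancer stem-like cells. Each derivative is a single line, so what belongs to the organ it was selected in and what belongs to that line cannot be told apart. The labels name the replicates biological and leave unsaid whether each was its own culture or sort, so the p-values reflect sample-to-sample spread that may in part be technical.

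Wnt proteins are secreted lipid-modified ligands that bind Frizzled receptors. In the canonical branch, a Frizzled and LRP5 or LRP6 together recruit Dishevelled and Axin to the membrane, beta-catenin escapes destruction, and it enters the nucleus to act with the LEF1 and TCF factors on target genes. Secreted Frizzled-related proteins and WIF1 capture the ligand, Dickkopf proteins block the co-receptors, and the ligases RNF43 and ZNRF3 remove Frizzled from the surface unless R-spondins and their LGR receptors clear those ligases away. Other branches, which use ligands such as WNT5A and the Dishevelled partners DAAM1 and DAAM2, act on the actin cytoskeleton and cell polarity. In breast cancer the pathway is known for its part in stem-like cells, and DKK1 for its action on bone-forming cells.

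Values are log2 expression levels as deposited, after robust multi-array averaging (RMA) by the authors, and a difference of 1 on that scale is a doubling. Each difference was tested with limma across 21214 named clusters, and "higher" and "lower" without a qualifier mean a Benjamini-Hochberg adjusted p under 0.05 (limma, two-sided, n = 2 arrays a line). Clusters differ in how brightly their probes shine, so a level was compared between lines for the same gene and never between genes. In such bulk RNA, fewer cells with a transcript and less transcript per cell cannot be told apart.

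Replicate arrays correlated at r = 0.9935 to 0.9959 across named clusters and arrays of different lines at 0.9666 to 0.9832, and array medians lay between 7.25 and 7.30. Of the genes behind the sort, EPCAM had 8.15 and 8.23 in 231BrM-2a, 8.32 and 7.28 in 231BoM-1833, and 8.13 and 7.93 in MDA-MB-231, so the 231BoM-1833 arrays differed, as they did for CD24 at 6.49 and 5.76, while a second EPCAM cluster had 6.93 and 7.10 on them. CD44 had 11.45 and 11.46 in 231BrM-2a, 12.17 and 11.82 in 231BoM-1833, and 11.87 and 11.86 in MDA-MB-231, and was 1.46-fold lower in 231BrM-2a than in 231BoM-1833 (adjusted p = 0.014). ESR1, the oestrogen receptor that the parental line lacks, had means of 5.01 in 231BrM-2a, 5.12 in 231BoM-1833 and 5.19 in MDA-MB-231. Of the 3 luminal and receptor genes measured, ERBB2 alone was called, higher in 231BrM-2a than in either other line. VIM, a mesenchymal gene typical of the parental line, had means of 12.32 in 231BrM-2a, 12.91 in 231BoM-1833 and 12.69 in MDA-MB-231. VIM was lower in 231BrM-2a than in MDA-MB-231 (adjusted p = 0.0294) and than in 231BoM-1833 (adjusted p = 0.00256). ZEB1, another mesenchymal gene, was lower than in MDA-MB-231 in 231BrM-2a (adjusted p = 0.00855) and in 231BoM-1833 (adjusted p = 0.0248). Of the 4 mesenchymal genes measured, FN1 and CDH2 were not called in any comparison. The summed log2 level of that list was 39.12 to 39.34 in 231BrM-2a, 39.13 to 40.12 in 231BoM-1833, and 40.15 to 40.28 in MDA-MB-231. Of 5 fibroblast and bone genes measured, PDGFRB and COL1A1 were higher in 231BrM-2a than in MDA-MB-231, PDGFRB by 3.25-fold (adjusted p = 6.54e-05), and the summed log2 level of the list was 31.23 to 31.64 in 231BrM-2a, 29.42 to 29.45 in 231BoM-1833, and 29.53 to 29.86 in MDA-MB-231. COL1A1 differed by 0.58 in 231BrM-2a against MDA-MB-231, and the other 3 genes of that list were not called, at -0.17 for COL3A1, -0.24 for IBSP and -0.14 for SPP1, so that the list's median was -0.14 and its higher sum came from PDGFRB and COL1A1. The leukocyte list of 4 genes summed to 21.51 to 21.96 in 231BrM-2a, 23.14 to 23.21 in 231BoM-1833, and 22.43 to 22.56 in MDA-MB-231. CD14 alone of that list was called, lower in 231BrM-2a by 1.42-fold (adjusted p = 0.0195) and higher in 231BoM-1833 by 1.84-fold (adjusted p = 0.00219) than in MDA-MB-231, while PTPRC, the marker of all leukocytes, had means of 3.71 in 231BrM-2a, 3.68 in 231BoM-1833 and 3.73 in MDA-MB-231. Of 5 endothelial and blood genes, PECAM1 and PPBP were lower in 231BrM-2a than in MDA-MB-231 (adjusted p = 0.0382 and 0.022), though a second PECAM1 cluster differed by 0.01 (adjusted p = 0.947). The neural and glial list of 4 genes had 1 called, RBFOX3, 1.92-fold higher in 231BrM-2a than in MDA-MB-231 (adjusted p = 0.00281), though its other clusters differed by -0.32 and -0.29. The part of these markers in the results below was not tested.

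Of the 57 genes, 9 were higher in 231BrM-2a than in MDA-MB-231 (WNT3, WNT5A, FZD3, LRP5, RNF43, DAAM1, DAAM2, TCF7L1 and TCF7L2) and 2 were lower (LGR4 and LEF1). These 11 are 19.3% of the genes, against 19% of all clusters tested, of which 10.5% were higher and 8.59% lower. By size, 15.8% of the genes passed the test and changed by at least 1.5-fold, against 9.71% of all clusters. Of the same genes, 2 were higher in 231BoM-1833 than in MDA-MB-231 (RNF43 and DAAM1) and 5 were lower (FZD3, FZD9, RSPO4, DKK1 and DAAM2), 12.3% of the genes against 15.8% of all clusters, of which 8.43% were higher and 7.38% lower. The share past 1.5-fold was 3.51% there, against 7.04% of all clusters. Both shares of calls against the parental line were thus close to or below the background of the array. Between the derivatives, 13 genes were higher in 231BrM-2a and 4 lower, 29.8% of the genes against 23.5% of all clusters, of which 12.5% were higher and 11% lower, and 19.3% passed 1.5-fold, against 12.7% of all clusters.

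The median difference of the 57 genes was -0.08 in 231BrM-2a against MDA-MB-231, beside -0.05 over all clusters tested. It was -0.13 in 231BoM-1833 against MDA-MB-231, beside -0.05 over all clusters, and 0.06 in 231BrM-2a against 231BoM-1833, beside 0.01. The calls lay in 19 genes that passed the test in at least 1 comparison, while 38 passed it in none. Of those 19, RNF43 and DAAM1 were higher in both derivatives than in MDA-MB-231, and FZD3 and DAAM2 were higher in 231BrM-2a and lower in 231BoM-1833. These comparisons share the MDA-MB-231 arrays. Shares of all clusters called in at least 1 comparison, or in both derivatives, were not computed, so these counts have no background beside them. Of the 35 calls, 17 held under all 16 alternative settings other than a 1.5-fold minimum, and 18 were lost when some single array was left out, as given beside each gene with the adjusted p of the fit without that array in parentheses.

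**Figure D1:**
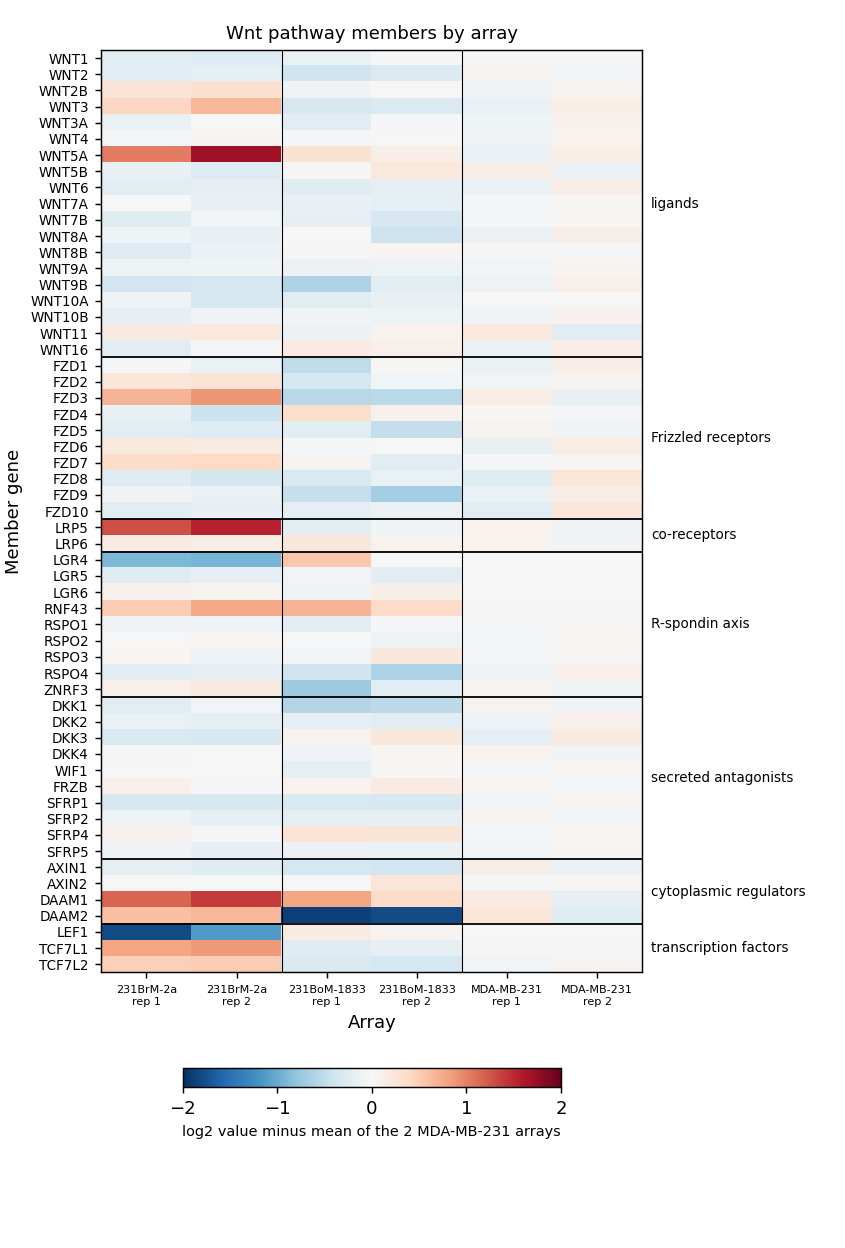
Log2 level of each of the 57 Wnt pathway genes on each of the 6 arrays, minus the mean of both MDA-MB-231 arrays, drawn as colour (capped at 2 either way) with genes in rows by role and arrays in columns from 231BrM-2a to 231BoM-1833 to MDA-MB-231. Most rows are pale throughout, and the strongest colours are those of WNT5A, LRP5, DAAM1 and LEF1 in 231BrM-2a and of DAAM2 in 231BoM-1833.

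Promoter sequence is shown for 4 of these genes, chosen after their values were seen: LEF1 and LRP5, the gene with the largest fall and the gene with the largest rise in 231BrM-2a against the parental line, and DAAM2 and DKK1, the only genes among the 40 of the set found in the promoter table that have the letters CTTTGA (or TCAAAG, the same letters read on the other strand) in the window. Those letters are the core of the sequence that LEF1 and TCF proteins bind. Each window runs from 250 bases before to 50 bases after a RefSeq transcript start on GRCh38.p14, and the capitals mark a match. Of 35116 such windows, 4536 hold a match on either strand (12.9%), and among the 50 windows of those 40 genes, 2 did. A match is a description of letters, not a bound site. LEF1 is read from chr4:108166252-108166551 on the minus strand, LRP5 from chr11:68312341-68312640 on the plus strand, DAAM2 from chr6:39792730-39793029 on the plus strand and DKK1 from chr10:52314031-52314330 on the plus strand.
LEF1: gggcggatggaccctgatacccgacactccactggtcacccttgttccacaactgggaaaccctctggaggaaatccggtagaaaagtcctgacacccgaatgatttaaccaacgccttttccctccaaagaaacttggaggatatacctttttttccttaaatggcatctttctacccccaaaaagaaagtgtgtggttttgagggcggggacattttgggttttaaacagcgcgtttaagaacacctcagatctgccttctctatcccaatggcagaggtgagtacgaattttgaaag
LRP5: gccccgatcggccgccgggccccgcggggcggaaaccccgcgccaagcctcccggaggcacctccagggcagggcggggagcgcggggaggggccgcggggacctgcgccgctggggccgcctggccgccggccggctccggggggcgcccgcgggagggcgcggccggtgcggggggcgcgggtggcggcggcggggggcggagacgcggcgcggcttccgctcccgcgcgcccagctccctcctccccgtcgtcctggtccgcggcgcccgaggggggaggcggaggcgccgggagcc
DAAM2: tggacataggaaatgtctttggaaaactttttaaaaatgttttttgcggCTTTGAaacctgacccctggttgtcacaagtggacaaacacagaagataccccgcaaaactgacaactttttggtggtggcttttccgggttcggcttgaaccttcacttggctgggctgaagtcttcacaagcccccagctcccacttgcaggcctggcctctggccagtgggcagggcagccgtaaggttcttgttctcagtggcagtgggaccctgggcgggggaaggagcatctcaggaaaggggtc
DKK1: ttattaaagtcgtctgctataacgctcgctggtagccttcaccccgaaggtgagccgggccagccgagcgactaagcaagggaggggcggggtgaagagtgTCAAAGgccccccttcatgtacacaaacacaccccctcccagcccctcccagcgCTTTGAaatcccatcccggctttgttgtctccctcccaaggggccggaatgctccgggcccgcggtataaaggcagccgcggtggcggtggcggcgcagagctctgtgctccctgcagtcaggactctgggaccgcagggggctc
The LEF1 window has 47% G and C with 9 CpG pairs, against 86.7% and 52 in LRP5, 53% and 6 in DAAM2, and 63.7% and 20 in DKK1. DAAM2 has its match at -201 from the start in 1 of its 2 windows, and DKK1 has matches at -149 and -95.

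Among the 19 ligands measured, WNT5A and WNT3 were higher in 231BrM-2a than in either other line. They are 10.5% of the ligands, beside 19% of all clusters against MDA-MB-231 and 23.5% between the derivatives. No ligand was called in 231BoM-1833 against MDA-MB-231, where 15.8% of all clusters were. At an unadjusted p under 0.05 (limma), 0 ligands were higher there and 2 lower. WNT5A (cluster 8088180), the main ligand of the beta-catenin-independent branches, had log2 levels of 7.36 and 8.02 in 231BrM-2a, 6.63 and 6.46 in 231BoM-1833, and 6.21 and 6.44 in MDA-MB-231. Both 231BrM-2a arrays lay above all other arrays, although they differed from each other more than the other pairs did. The difference was 1.36 ± 0.19 (SE), 2.57-fold, against MDA-MB-231 (adjusted p = 0.00169) and 1.15 ± 0.19, 2.22-fold, against 231BoM-1833 (adjusted p = 0.00276). Between 231BoM-1833 and MDA-MB-231 it was 0.21 ± 0.19 (adjusted p = 0.489).

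WNT3 (cluster 8016311), a ligand of the canonical branch, had levels of 7.23 and 7.48 in 231BrM-2a, 6.51 and 6.55 in 231BoM-1833, and 6.69 and 6.96 in MDA-MB-231. The lines did not overlap, with 231BrM-2a highest and 231BoM-1833 lowest. WNT3 was higher in 231BrM-2a by 0.83 ± 0.13 against 231BoM-1833, 1.78-fold (adjusted p = 0.00195), and by 0.53 ± 0.13 against MDA-MB-231, 1.45-fold (adjusted p = 0.0218). The second of these calls was lost without replicate 1 of MDA-MB-231 (adjusted p = 0.139) or replicate 2 of 231BrM-2a (adjusted p = 0.165). WNT3 in 231BoM-1833 differed from MDA-MB-231 by -0.30 ± 0.13 (adjusted p = 0.157). The other 17 ligands differed by -0.35 to 0.29 in 231BrM-2a against MDA-MB-231, and by -0.32 to 0.32 between the derivatives, without passing the test. WNT9A, with the highest mean of the ligands, had 7.64 and 7.64 in 231BrM-2a, 7.61 and 7.63 in 231BoM-1833, and 7.67 and 7.79 in MDA-MB-231. WNT2, with the lowest, had 4.28 and 4.31 in 231BrM-2a, 4.11 and 4.24 in 231BoM-1833, and 4.57 and 4.45 in MDA-MB-231, and no level was given below which a cluster counts as background.

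Of the 10 Frizzled receptors, 1 was called in 231BrM-2a against MDA-MB-231 and 2 in 231BoM-1833 against MDA-MB-231. These are 10% and 20% of the receptors, beside 19% and 15.8% of all clusters. Between the derivatives 4 were higher in 231BrM-2a (FZD2, FZD3, FZD7 and FZD9) and FZD4 was lower, 50% of the receptors beside 23.5% of all clusters, and of these calls FZD3 alone was kept without replicate 2 of 231BrM-2a. FZD3 (cluster 8145611), a receptor best known for planar polarity and axon guidance, had log2 levels of 7.89 and 8.09 in 231BrM-2a, 6.64 and 6.67 in 231BoM-1833, and 7.35 and 7.06 in MDA-MB-231. Its level thus stood above the parental line in the brain-selected derivative and below it in the bone-selected one, with no overlap. The difference was 0.79 ± 0.13 in 231BrM-2a against MDA-MB-231, 1.72-fold (adjusted p = 0.00317), and -0.55 ± 0.13 in 231BoM-1833 against MDA-MB-231, 1.46-fold lower (adjusted p = 0.0223). Between the derivatives it was 1.33 ± 0.13, 2.52-fold (adjusted p = 0.000117). The call in 231BoM-1833 was lost without replicate 1 of MDA-MB-231 (adjusted p = 0.13) and without replicate 1 or 2 of 231BoM-1833 (adjusted p = 0.0607 and 0.0566).

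FZD9 had levels of 7.76 and 7.70 in 231BrM-2a, 7.37 and 7.16 in 231BoM-1833, and 7.70 and 7.97 in MDA-MB-231. It was lower in 231BoM-1833 than in MDA-MB-231 by 1.48-fold (adjusted p = 0.0183), and 1.38-fold higher in 231BrM-2a than in 231BoM-1833 (adjusted p = 0.027). The bone-selected line was therefore the one that stood apart for this receptor. FZD7, a receptor of canonical signalling known from triple-negative breast cancer, was 1.37-fold higher in 231BrM-2a than in 231BoM-1833 (adjusted p = 0.0214), with 8.74 and 8.77 against 8.44 and 8.17, and had 8.35 and 8.40 in MDA-MB-231. FZD2 was 1.39-fold higher in 231BrM-2a than in 231BoM-1833 (adjusted p = 0.0227), and FZD4, the receptor of norrin as well as of Wnt proteins, 1.42-fold lower (adjusted p = 0.0234). Each of these smaller calls depended on single arrays. FZD9 lost its call in 231BoM-1833 against MDA-MB-231 without replicate 2 of MDA-MB-231 (0.139) or replicate 2 of 231BoM-1833 (0.0716). Between the derivatives the adjusted p of FZD9 was 0.124, 0.137 and 0.0936 without replicate 2 of 231BoM-1833, replicate 1 and replicate 2 of 231BrM-2a. That of FZD7 was 0.101, 0.0886 and 0.109 without the same arrays, that of FZD2 was 0.099, 0.0828 and 0.122 without replicate 1 of 231BoM-1833, replicate 1 and replicate 2 of 231BrM-2a, and that of FZD4 was 0.105 and 0.174 without replicate 1 of 231BoM-1833 and replicate 2 of 231BrM-2a. FZD6, with the highest mean of the Frizzled genes, had 10.50 and 10.46 in 231BrM-2a, 10.28 and 10.31 in 231BoM-1833, and 10.16 and 10.45 in MDA-MB-231. FZD10, with the lowest, had 6.84 and 6.91 in 231BrM-2a, 6.89 and 6.95 in 231BoM-1833, and 6.85 and 7.29 in MDA-MB-231. Neither passed the test in any comparison.

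The co-receptors parted. LRP5 (cluster 7942007) had log2 levels of 9.39 and 9.64 in 231BrM-2a, 7.88 and 8.01 in 231BoM-1833, and 8.17 and 8.03 in MDA-MB-231. Both 231BrM-2a arrays stood more than a doubling above the other arrays. The difference was 1.41 ± 0.12 against MDA-MB-231, 2.67-fold (adjusted p = 0.000113), and 1.57 ± 0.12 against 231BoM-1833, 2.97-fold (adjusted p = 3.42e-05), and both calls held under all 16 alternatives. Between 231BoM-1833 and MDA-MB-231 the difference of LRP5 was -0.15 ± 0.12 (adjusted p = 0.426). LRP6, the close relative of LRP5 that serves the same ligands, had 9.12 and 9.09 in 231BrM-2a, 9.18 and 9.01 in 231BoM-1833, and 9.01 and 8.89 in MDA-MB-231. The arrays of the derivatives overlapped, and the differences of LRP6 were 0.15 ± 0.11 in 231BrM-2a against MDA-MB-231 (adjusted p = 0.374) and 0.01 ± 0.11 between the derivatives (adjusted p = 0.98).

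**Figure D2:**
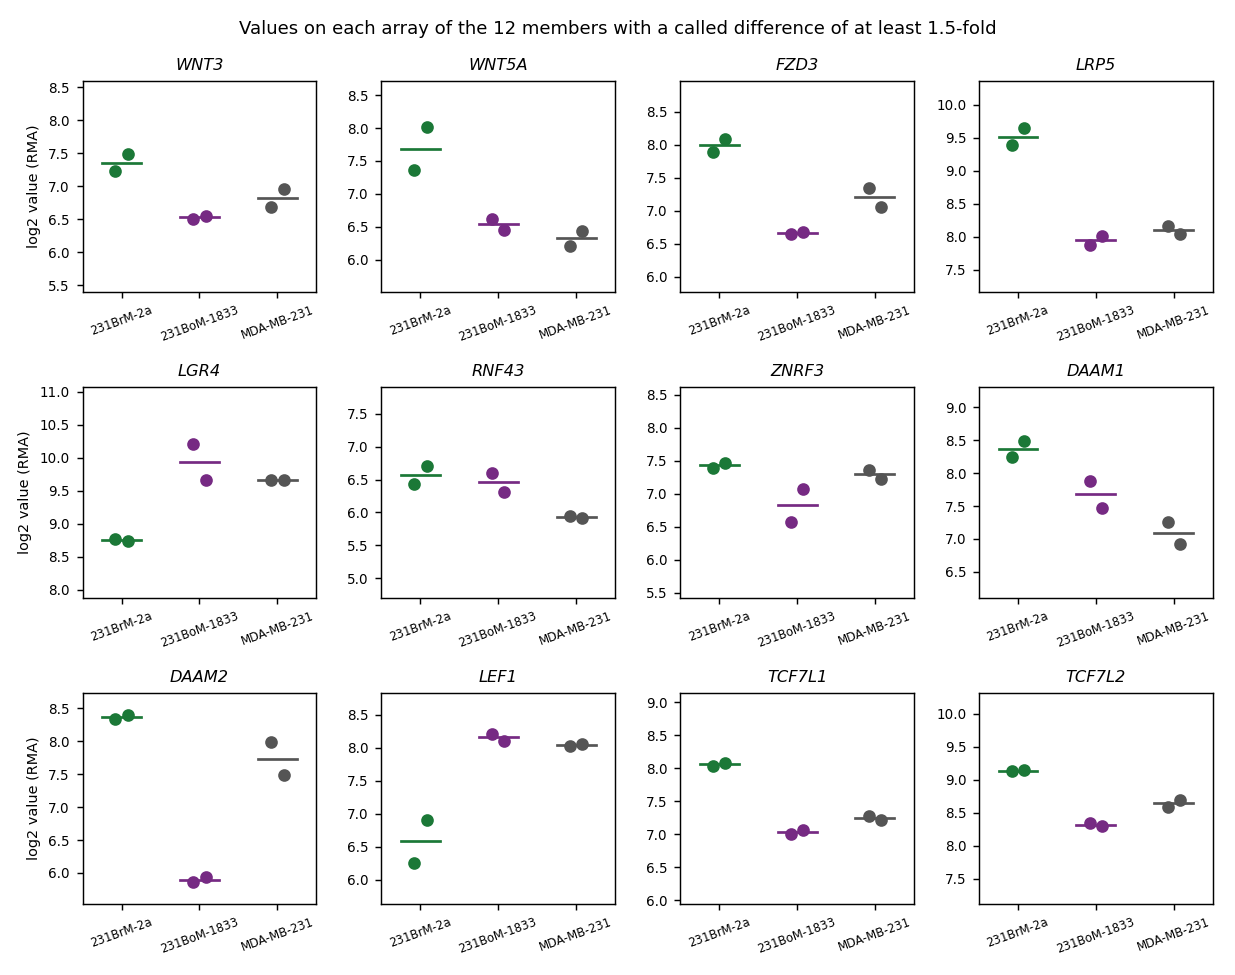
Log2 level of 12 Wnt pathway genes, those that passed the test with at least 1.5-fold in some comparison, with a dot for each array, a line for the mean of each pair and the lines ordered 231BrM-2a, 231BoM-1833, MDA-MB-231 from left to right. LRP5 sits at 9.39 and 9.64 in 231BrM-2a, above every other array, and DAAM2 at 5.86 and 5.94 in 231BoM-1833, below every other array.

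On the R-spondin axis, LGR4 was lower and RNF43 higher in 231BrM-2a than in MDA-MB-231, and ZNRF3 differed between the derivatives. Calls were 22.2% of the 9 genes of this axis in each of the 3 comparisons. That is near the shares of all clusters, 19% in 231BrM-2a and 15.8% in 231BoM-1833 against MDA-MB-231, and 23.5% between the derivatives. LGR4 (cluster 7947199), the broadly expressed R-spondin receptor, had log2 levels of 8.76 and 8.74 in 231BrM-2a, 10.21 and 9.66 in 231BoM-1833, and 9.67 and 9.67 in MDA-MB-231. The 231BrM-2a arrays were the lowest, while those of 231BoM-1833 and MDA-MB-231 overlapped. The difference was -0.92 ± 0.16 in 231BrM-2a against MDA-MB-231, 1.89-fold lower (adjusted p = 0.00485), and -1.19 ± 0.16 against 231BoM-1833, 2.27-fold lower (adjusted p = 0.000918). Against MDA-MB-231, LGR4 in 231BoM-1833 differed by 0.27 ± 0.16 (adjusted p = 0.3). LGR5, a stem cell marker in intestine and the gene of this axis with the lowest mean, had 4.44 and 4.52 in 231BrM-2a, 4.63 and 4.46 in 231BoM-1833, and 4.67 and 4.69 in MDA-MB-231, without passing the test.

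RNF43 (cluster 8016994) had levels of 6.43 and 6.70 in 231BrM-2a, 6.60 and 6.31 in 231BoM-1833, and 5.94 and 5.91 in MDA-MB-231. Both derivatives lay above the parental line and overlapped with each other. The difference against MDA-MB-231 was 0.64 ± 0.14 in 231BrM-2a, 1.56-fold (adjusted p = 0.0114), and 0.53 ± 0.14 in 231BoM-1833, 1.44-fold (adjusted p = 0.0309). The call in 231BrM-2a was lost without replicate 1 or 2 of MDA-MB-231 (adjusted p = 0.0577 and 0.0785) or replicate 2 of 231BrM-2a (0.0994), and that in 231BoM-1833 without replicate 1 or 2 of MDA-MB-231 (0.109 and 0.153) or replicate 1 of 231BoM-1833 (0.118). ZNRF3 (cluster 8072160), the partner ligase, had 7.40 and 7.47 in 231BrM-2a, 6.57 and 7.07 in 231BoM-1833, and 7.36 and 7.22 in MDA-MB-231. It was 1.53-fold higher in 231BrM-2a than in 231BoM-1833, by 0.61 ± 0.16 (adjusted p = 0.0216), a call lost without replicate 1 of 231BoM-1833 (0.0792), replicate 1 of 231BrM-2a (0.0774) or its replicate 2 (0.113). RNF43 was thus called in both derivatives against the parental line, and ZNRF3 only between the derivatives. Against MDA-MB-231, ZNRF3 differed by -0.47 ± 0.16 in 231BoM-1833 (limma, adjusted p = 0.0748) and by 0.14 ± 0.16 in 231BrM-2a (adjusted p = 0.575). RSPO4, a secreted R-spondin, was lower in 231BoM-1833 than in MDA-MB-231 by 1.43-fold, with 6.32 and 6.08 against 6.62 and 6.82 (adjusted p = 0.0236), a call lost without replicate 1 or 2 of MDA-MB-231 (0.0538 and 0.163) or replicate 2 of 231BoM-1833 (0.0897).

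None of the 10 secreted antagonists passed the test in 231BrM-2a against MDA-MB-231, where 19% of all clusters did. At an unadjusted p under 0.05 (limma), 0 of them were higher there and 2 lower. Calls were 10% of the antagonists in 231BoM-1833 against MDA-MB-231 and 20% between the derivatives, beside 15.8% and 23.5% of all clusters. DKK1 (cluster 7927631), which binds LRP5 and LRP6 and blocks them, had log2 levels of 11.57 and 11.72 in 231BrM-2a, 11.20 and 11.27 in 231BoM-1833, and 11.85 and 11.72 in MDA-MB-231. The bone-selected line was the lowest on both arrays. DKK1 was lower there than in MDA-MB-231 by 1.47-fold, a difference of -0.55 ± 0.11 (adjusted p = 0.012), and 231BrM-2a stood above 231BoM-1833 by 0.41 ± 0.11, 1.33-fold (adjusted p = 0.0251). In 231BrM-2a against MDA-MB-231 the difference was -0.14 ± 0.11 (adjusted p = 0.421). The call in 231BoM-1833 against MDA-MB-231 was lost without replicate 1 or 2 of MDA-MB-231 (0.0795 and 0.0534). Between the derivatives the call was lost without replicate 1 or 2 of 231BoM-1833 (0.0778 and 0.0503) or replicate 1 or 2 of 231BrM-2a (0.0543 and 0.17). DKK3, a divergent Dickkopf protein, was lower in 231BrM-2a than in 231BoM-1833 by 1.38-fold, with 6.85 and 6.83 against 7.22 and 7.38 (adjusted p = 0.0353). That call was lost without replicate 2 of 231BoM-1833 (0.143) or replicate 1 or 2 of 231BrM-2a (0.13 and 0.144), and the other cluster of DKK3 differed by 0.01 (adjusted p = 0.953). The remaining 8 antagonists differed between the derivatives by -0.24 to 0.08. FRZB, with the lowest mean of the group, had 4.36 and 4.22 in 231BrM-2a, 4.33 and 4.41 in 231BoM-1833, and 4.30 and 4.21 in MDA-MB-231, and the lines overlapped.

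The formins DAAM1 and DAAM2, which link Dishevelled to actin assembly, both passed the test in all 3 comparisons, and DAAM2 gave the largest difference of the set. They are 50% of the 4 cytoplasmic regulators in each comparison. All clusters stood at 19% in 231BrM-2a and 15.8% in 231BoM-1833 against MDA-MB-231, and at 23.5% between the derivatives. With 4 genes, such shares are coarse, and the share of all clusters called in all 3 comparisons was not computed. DAAM2 (cluster 8119357) had log2 levels of 8.33 and 8.40 in 231BrM-2a, 5.86 and 5.94 in 231BoM-1833, and 7.98 and 7.49 in MDA-MB-231. Its level in the bone-selected line lay far below both other lines. In 231BoM-1833 against MDA-MB-231 the difference was -1.83 ± 0.15, 3.57-fold lower (adjusted p = 0.00016), and 231BrM-2a stood above 231BoM-1833 by 2.47 ± 0.15, 5.53-fold (adjusted p = 8.86e-06). Against MDA-MB-231, DAAM2 in 231BrM-2a was higher by 0.63 ± 0.15, 1.55-fold (adjusted p = 0.0204), a call lost without replicate 2 of MDA-MB-231 (0.129), replicate 1 of 231BrM-2a (0.077) or its replicate 2 (0.116). The other 2 differences of DAAM2 held under all 16 alternatives.

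DAAM1 (cluster 7974697) had levels of 8.25 and 8.49 in 231BrM-2a, 7.89 and 7.47 in 231BoM-1833, and 7.26 and 6.92 in MDA-MB-231. The lines did not overlap, and both derivatives lay above the parental line. The difference was 1.28 ± 0.17 in 231BrM-2a against MDA-MB-231, 2.42-fold (adjusted p = 0.00112), 0.59 ± 0.17 in 231BoM-1833 against MDA-MB-231, 1.5-fold (adjusted p = 0.046), and 0.69 ± 0.17 between the derivatives, 1.61-fold (adjusted p = 0.017). The call in 231BoM-1833 was lost without replicate 1 or 2 of MDA-MB-231 (0.0646 and 0.268), replicate 1 of 231BoM-1833 (0.18) or either array of 231BrM-2a (0.0616 each), and that between the derivatives without replicate 2 of 231BoM-1833 (0.0907) or replicate 2 of 231BrM-2a (0.12). Of the paired formins, then, DAAM1 stood above the parental line in both derivatives and DAAM2 only in 231BrM-2a, with the difference between the derivatives tested for each. AXIN1, a scaffold of the beta-catenin destruction complex, had 7.94 and 7.89 in 231BrM-2a, 7.79 and 7.75 in 231BoM-1833, and 8.25 and 8.03 in MDA-MB-231, and was not called. AXIN2, the most widely used target gene of canonical signalling, had 6.62 and 6.64 in 231BrM-2a, 6.64 and 6.87 in 231BoM-1833, and 6.60 and 6.66 in MDA-MB-231. The arrays of AXIN2 overlapped, and its differences were 0.00 ± 0.11 (adjusted p = 0.999) in 231BrM-2a and 0.13 ± 0.11 (adjusted p = 0.481) in 231BoM-1833, each against MDA-MB-231.

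All 3 transcription factors measured differed in 231BrM-2a from both other lines, beside 19% of all clusters against MDA-MB-231 and 23.5% against 231BoM-1833. None was called in 231BoM-1833 against MDA-MB-231, where 15.8% of all clusters were. At an unadjusted p under 0.05 (limma), 0 were higher there and 1 lower. With 3 genes, such shares are coarse. LEF1 (cluster 8102232), which activates target genes when beta-catenin is bound, had log2 levels of 6.25 and 6.91 in 231BrM-2a, 8.22 and 8.10 in 231BoM-1833, and 8.03 and 8.06 in MDA-MB-231. Both 231BrM-2a arrays lay well below the other 4. The difference was -1.46 ± 0.18 against MDA-MB-231, 2.76-fold lower (adjusted p = 0.000886), and -1.58 ± 0.18 against 231BoM-1833, 2.99-fold lower (adjusted p = 0.000353). LEF1 in 231BoM-1833 differed from MDA-MB-231 by 0.11 ± 0.18 (adjusted p = 0.708).

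TCF7L1 and TCF7L2 went the other way. TCF7L1 (cluster 8043114), often a repressor of Wnt targets and known from embryonic stem cells, had levels of 8.03 and 8.09 in 231BrM-2a, 7.00 and 7.07 in 231BoM-1833, and 7.27 and 7.21 in MDA-MB-231. It was higher in 231BrM-2a by 0.82 ± 0.10 against MDA-MB-231, 1.76-fold (adjusted p = 0.000812), and by 1.02 ± 0.10 against 231BoM-1833, 2.03-fold (adjusted p = 0.000138). TCF7L2 (cluster 7930537), the main partner of beta-catenin in many epithelia, had 9.12 and 9.14 in 231BrM-2a, 8.35 and 8.29 in 231BoM-1833, and 8.58 and 8.70 in MDA-MB-231. For both genes 231BrM-2a was highest and 231BoM-1833 lowest, without overlap. TCF7L2 was higher in 231BrM-2a by 0.81 ± 0.10 against 231BoM-1833, 1.76-fold (adjusted p = 0.000542), and by 0.49 ± 0.10 against MDA-MB-231, 1.41-fold (adjusted p = 0.0102). The call of TCF7L2 against MDA-MB-231 was lost without replicate 1 of MDA-MB-231 (0.0738) or replicate 1 or 2 of 231BrM-2a (0.059 and 0.0712). In 231BoM-1833 against MDA-MB-231 the differences were -0.20 ± 0.10 for TCF7L1 (adjusted p = 0.204) and -0.32 ± 0.10 for TCF7L2 (adjusted p = 0.065).

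**Figure D3:**
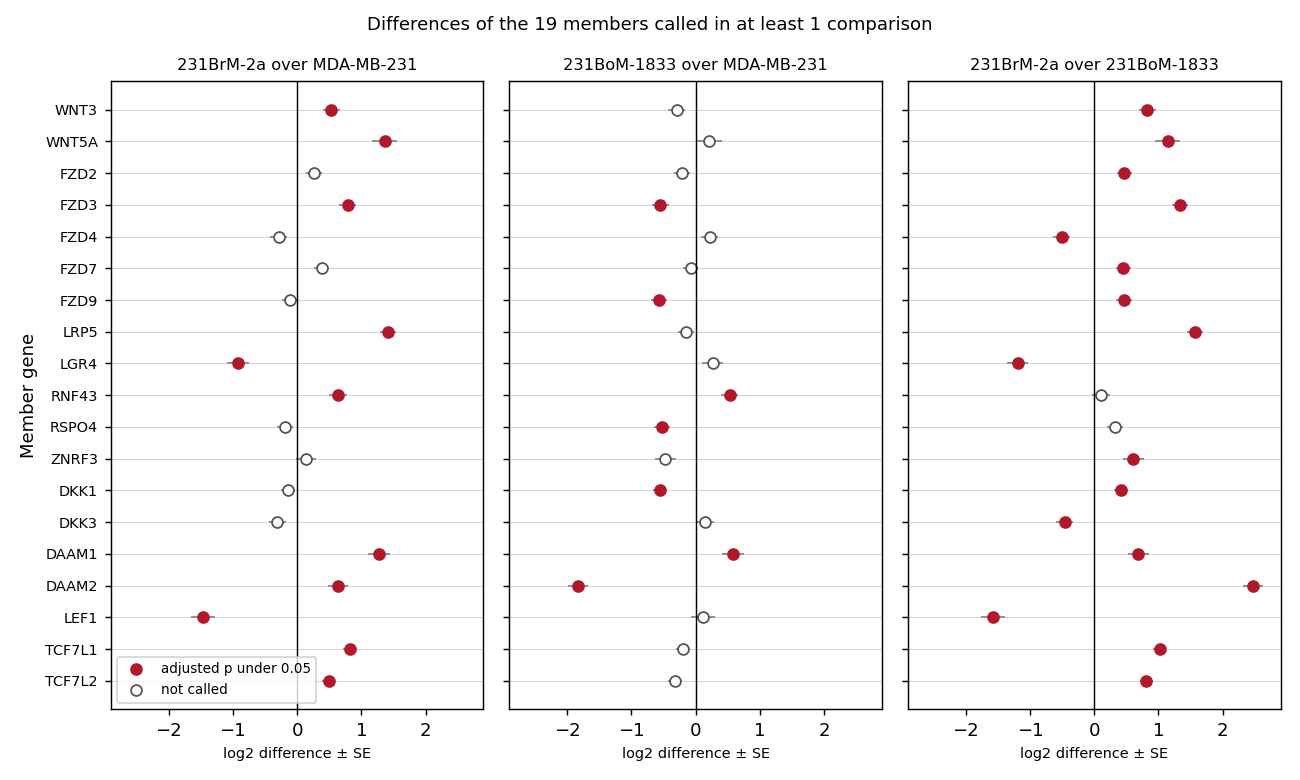
Log2 difference with its standard error for the 19 Wnt pathway genes called in at least 1 comparison, in a panel each for 231BrM-2a over MDA-MB-231, 231BoM-1833 over MDA-MB-231 and 231BrM-2a over 231BoM-1833, with filled red points where the adjusted p was under 0.05. LEF1 lies at -1.46 in the first panel and DAAM2 at -1.83 in the second, while DAAM2 lies at 2.47 in the third.

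Genes that work around these were counted in lists written from general knowledge of the pathway, with earlier results of these data known. Of 6 genes measured for the secretion of Wnt proteins, WLS, the carrier that brings them to the surface, was lower in 231BrM-2a than in MDA-MB-231, with 10.17 and 10.24 against 10.80 and 10.88, 1.56-fold (adjusted p = 0.0029). It was also 1.69-fold lower there than in 231BoM-1833 (adjusted p = 0.000822), and another gene of the list, TMED2, was lower in 231BrM-2a than in 231BoM-1833 by 1.27-fold (adjusted p = 0.0453). TMED5 was higher in 231BoM-1833 than in MDA-MB-231 by 1.28-fold (adjusted p = 0.0487). Both TMED genes, which encode cargo receptors of early secretion, lost these calls without any 1 of 5 arrays (0.0806 to 0.19 for TMED5, 0.0726 to 0.183 for TMED2). The calls of the secretion list are 16.7% of it in each derivative against MDA-MB-231 and 33.3% between the derivatives. All clusters stood at 19% in 231BrM-2a, 15.8% in 231BoM-1833 and 23.5% between the derivatives. Among 4 alternative receptors, ROR1, a receptor for WNT5A, and RYK were lower in 231BoM-1833 than in MDA-MB-231. These calls, and those between the derivatives, are each 50% of that list, beside the same 15.8% and 23.5% of all clusters. ROR1 had 8.12 and 7.92 in 231BoM-1833 against 8.76 and 8.72 in MDA-MB-231, 1.65-fold lower (adjusted p = 0.00618), and 8.96 and 8.71 in 231BrM-2a. RYK was 1.31-fold lower in 231BoM-1833 than in MDA-MB-231 (adjusted p = 0.039), a call lost without any 1 of the 6 arrays (0.0578 to 0.219). No alternative receptor was called in 231BrM-2a against MDA-MB-231 (limma, with 0 at an unadjusted p under 0.05 in either direction), and both ROR1 and RYK were higher in 231BrM-2a than in 231BoM-1833, the second call being lost without replicate 1 (0.0712) or 2 (0.0509) of 231BrM-2a.

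Of 12 other extracellular modulators, 3 were higher and 1 lower in 231BrM-2a than in MDA-MB-231. KREMEN1, a receptor through which Dickkopf proteins act on LRP5 and LRP6, had 7.17 and 7.22 in 231BrM-2a, 5.97 and 6.09 in 231BoM-1833, and 6.34 and 6.15 in MDA-MB-231. The 231BrM-2a arrays lay above the other 4 by 1.94-fold against MDA-MB-231 (adjusted p = 0.000637) and 2.24-fold against 231BoM-1833 (adjusted p = 0.000117). LYPD6, a membrane-anchored enhancer of Wnt signalling, had 7.70 and 8.12 in 231BrM-2a, 7.20 and 7.16 in 231BoM-1833, and 6.69 and 6.44 in MDA-MB-231, and was 2.54-fold higher in 231BrM-2a than in MDA-MB-231 (adjusted p = 0.000515). GPC4, a glypican that binds Wnt proteins, had 6.08 and 7.46 in 231BrM-2a against 5.04 and 4.72 in MDA-MB-231, 3.71-fold higher (adjusted p = 0.00575). The arrays of 231BrM-2a were far apart for GPC4, and the call was lost without replicate 2 of MDA-MB-231 (0.0597). In 231BoM-1833 against MDA-MB-231, 2 of these modulators were higher and 1 lower, and between the derivatives 4 were higher and 2 lower in 231BrM-2a. These calls are 33.3% of the list in 231BrM-2a against MDA-MB-231, 25% in 231BoM-1833 against MDA-MB-231 and 50% between the derivatives, beside 19%, 15.8% and 23.5% of all clusters. Without replicate 2 of MDA-MB-231, 3 of the 4 calls in 231BrM-2a and 0 of the 3 in 231BoM-1833 against MDA-MB-231 were kept, and without either array of 231BrM-2a 4 of the 6 between the derivatives. LYPD6 was 1.53-fold higher in 231BoM-1833 than in MDA-MB-231 (adjusted p = 0.0277), a call lost without replicate 1 or 2 of MDA-MB-231 (0.059 and 0.184) or replicate 1 or 2 of 231BoM-1833 (0.0783 and 0.068).

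Inside the cell, 2 of 19 genes of the beta-catenin destruction complex and its regulators were higher and 1 lower in 231BrM-2a than in MDA-MB-231, 2 were higher and 2 lower in 231BoM-1833 than in MDA-MB-231, and between the derivatives 3 were higher and 2 lower in 231BrM-2a. These are 15.8%, 21.1% and 26.3% of the list, beside 19%, 15.8% and 23.5% of all clusters. Without replicate 2 of MDA-MB-231, 1 of the 3 calls was kept in 231BrM-2a and 0 of the 4 in 231BoM-1833 against MDA-MB-231, and without replicate 1 of 231BrM-2a 3 of the 5 between the derivatives. TNKS, a tankyrase that marks Axin for destruction, had 8.86 and 8.76 in 231BrM-2a against 7.83 and 7.68 in MDA-MB-231, 2.08-fold higher (adjusted p = 0.000737). APC, the scaffold that holds beta-catenin for destruction, had 7.64 and 7.60 in 231BoM-1833 against 7.04 and 6.84 in MDA-MB-231, 1.61-fold higher (adjusted p = 0.0048), a call lost without replicate 2 of MDA-MB-231 (0.0523). FBXW11, an F-box protein that recognises beta-catenin, was 1.41-fold higher in 231BoM-1833 than in MDA-MB-231 (adjusted p = 0.0183), a call lost without replicate 1 or 2 of MDA-MB-231 (0.0596 and 0.128) or replicate 2 of 231BoM-1833 (0.0568). Both APC and FBXW11 were lower in 231BrM-2a than in 231BoM-1833, by 1.66-fold (adjusted p = 0.00151) and 1.56-fold (adjusted p = 0.00283). Of 12 nuclear cofactors, CHD8, a chromatin remodeller that binds beta-catenin, was higher in 231BrM-2a by 1.53-fold (adjusted p = 0.00511) and in 231BoM-1833 by 1.42-fold (adjusted p = 0.0164) than in MDA-MB-231. CHD8 lost the first call without replicate 2 of MDA-MB-231 (0.0551), and the second without that array (0.125) or replicate 2 of 231BoM-1833 (0.0592). Another 2 cofactors were lower in 231BoM-1833 than in MDA-MB-231, and 3 were higher in 231BrM-2a than in 231BoM-1833. The calls are 8.33% of the cofactors in 231BrM-2a and 25% in 231BoM-1833 against MDA-MB-231, and 25% between the derivatives. All clusters stood at 19%, 15.8% and 23.5% in that order. These counts also rested on single arrays, with 0 of the 3 calls kept in 231BoM-1833 against MDA-MB-231 without replicate 2 of either line, and 0 of the 3 between the derivatives without replicate 1 of 231BrM-2a.

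Of 14 genes known from several tissues as targets of canonical signalling, 2 were higher and 2 lower in each derivative against MDA-MB-231, and between the derivatives 1 was higher and 1 lower in 231BrM-2a. That is 28.6% of the list in each derivative, beside 19% of all clusters in 231BrM-2a and 15.8% in 231BoM-1833. Between the derivatives it is 14.3% of the list, below the 23.5% of all clusters. The median of the list was -0.20 in 231BrM-2a and -0.23 in 231BoM-1833, each beside -0.05 over all clusters, and 0.04 between the derivatives, beside 0.01. At an unadjusted p under 0.05, 2 were higher and 5 lower in 231BrM-2a, and 2 higher and 7 lower in 231BoM-1833. All 4 calls in 231BrM-2a held without any 1 array, while without replicate 2 of MDA-MB-231 0 of the 4 in 231BoM-1833 were kept. Likewise 0 of the 2 between the derivatives were kept without replicate 2 of 231BrM-2a. The members AXIN2, LEF1 and RNF43, also targets in other tissues, are described above. BAMBI, a decoy receptor of TGF-beta signalling, had 8.47 and 8.64 in 231BrM-2a, 8.74 and 8.06 in 231BoM-1833, and 7.40 and 7.24 in MDA-MB-231. Both derivatives lay above the parental line, by 2.36-fold in 231BrM-2a (adjusted p = 0.00263) and 2.12-fold in 231BoM-1833 (adjusted p = 0.0077, and 0.0725 without replicate 2 of MDA-MB-231). MSX2, a homeobox factor, was higher by 2.07-fold in 231BrM-2a (adjusted p = 0.000621) and 1.36-fold in 231BoM-1833 (adjusted p = 0.0404) than in MDA-MB-231. The second call of MSX2 was lost without replicate 1 or 2 of MDA-MB-231 (0.0693 and 0.235) or replicate 1 or 2 of 231BoM-1833 (0.086 and 0.0979). MYC, a growth regulator, had 11.82 and 11.89 in 231BrM-2a, 12.14 and 12.06 in 231BoM-1833, and 12.61 and 12.68 in MDA-MB-231. MYC was lower in both derivatives, by 1.72-fold in 231BrM-2a (adjusted p = 0.00104) and 1.46-fold in 231BoM-1833 (adjusted p = 0.00958, and 0.0796 without replicate 2 of MDA-MB-231).

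Of 14 planar polarity genes, 4 were higher and 1 lower in 231BrM-2a than in MDA-MB-231 (35.7%, beside 19% of all clusters), 2 were higher and 2 lower in 231BoM-1833 than in MDA-MB-231 (28.6%, beside 15.8%), and between the derivatives 5 were higher and 1 lower in 231BrM-2a (42.9%, beside 23.5%). These counts rested on single arrays. Without replicate 2 of MDA-MB-231, INVS was the 1 call of 5 kept in 231BrM-2a against MDA-MB-231, and 1 call of 4 was kept in 231BoM-1833 without replicate 2 of that line or without either MDA-MB-231 array. Between the derivatives 2 of 6 were kept without replicate 2 of 231BrM-2a. INVS, which encodes the ciliary protein inversin, had 7.87 and 7.69 in 231BrM-2a against 6.88 and 6.99 in MDA-MB-231, 1.8-fold higher (adjusted p = 0.00148). CELSR2, a large cadherin of the polarity complex, was 1.42-fold higher in 231BrM-2a than in MDA-MB-231 (adjusted p = 0.0115), a call lost without any 1 of the 4 arrays of these lines (0.0545 to 0.0828), and 1.68-fold higher than in 231BoM-1833 (adjusted p = 0.0012). VANGL1, a membrane protein of the same complex, was 1.53-fold higher in 231BrM-2a than in MDA-MB-231 (adjusted p = 0.0108), a call lost without replicate 2 of MDA-MB-231 (0.0838) or replicate 2 of 231BrM-2a (0.082). The median of this list was 0.16 in 231BrM-2a and -0.08 in 231BoM-1833 against MDA-MB-231, each beside -0.05 over all clusters tested. Between the derivatives it was 0.28, beside 0.01.

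**Figure D4:**
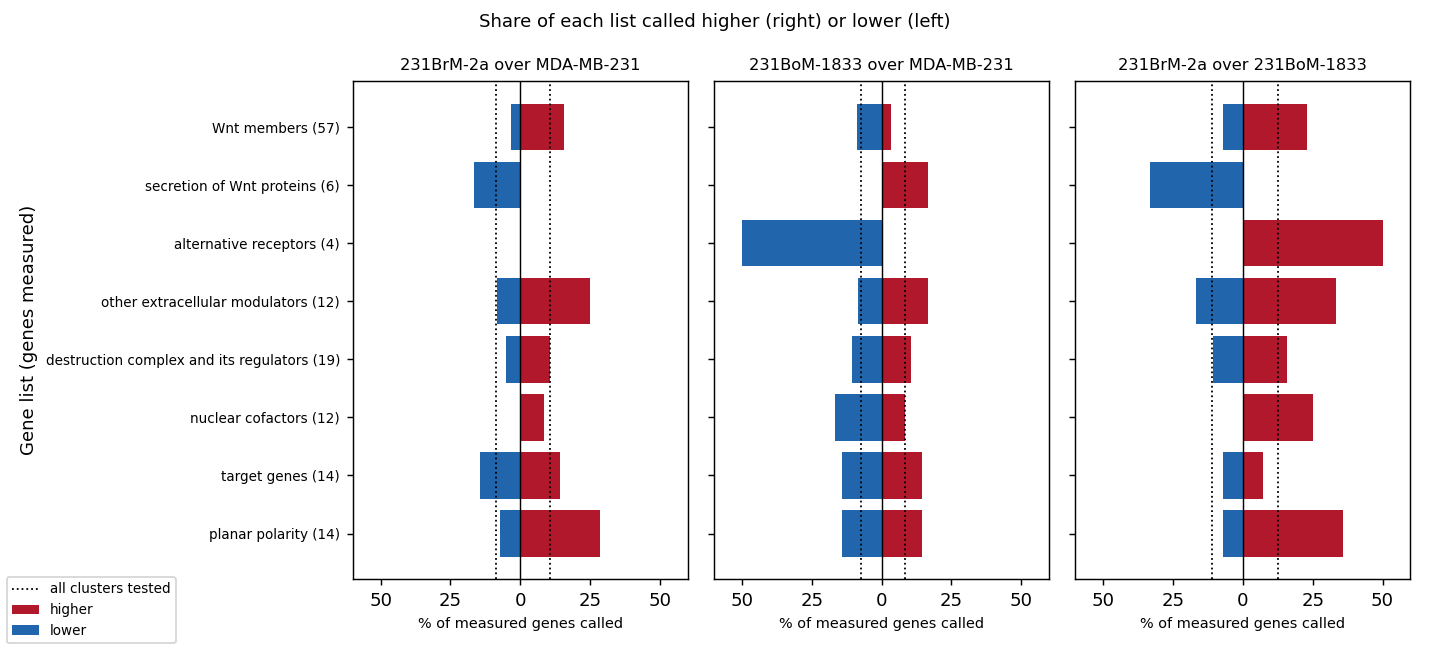
Percent of each gene list called higher (to the right) or lower (to the left) in each of the 3 comparisons, for the Wnt pathway genes and the lists around them, with dotted lines for the percent of all 21214 clusters tested. The Wnt pathway genes had 15.8% higher and 3.51% lower in 231BrM-2a against MDA-MB-231, where the dotted lines stand at 10.5% and 8.59%.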

How the data were processed

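Biotin-labelled cDNA made from total RNA of the sorted cells was read on the arrays. Each array was deposited as log2 levels of transcript clusters, which the authors obtained by RMA with the Expression Console software, per the submitters' processing notes, with no version given. The method subtracts background, forces all arrays onto 1 distribution and combines the probes of a cluster, so it hides differences in RNA content per cell and may shrink folds of dim clusters. Scanner files, detection calls and scan dates were not used here, and the sources used here do not give the genome build behind the probes. The number of arrays limits the precision.

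Of 33297 clusters, a platform annotation table named 21214, of which 19461 had 1 symbol and 1753 several, and 12083 were unnamed here. With limma 3.58.1 under R 4.3.3, 1 linear model with a mean for every line was fitted to the 6 arrays and moderated by eBayes at its default options. The p-values were adjusted by Benjamini-Hochberg over the 21214 named clusters, with 0.05 as the threshold. The procedure was tested on simulated data. Where a gene had several clusters, the one with the highest mean was used. Members and lists were chosen with earlier results of these data known. Genes given with every array's value are those past the threshold and at least 1.5-fold in any comparison, with LRP5, LRP6, AXIN2, LEF1, DKK1, RNF43, ZNRF3 and the highest and lowest mean of each role; other genes past the threshold are given by their fold, to which the array values of FZD7, FZD9, RSPO4 and DKK3 were added after they were seen, and of each other list up to 3 genes with the largest change. Promoter windows come from RefSeq on GRCh38.p14. Deviations of same-numbered replicates correlated at 0.04 for MDA-MB-231 with 231BoM-1833, and at -0.16 for 231BrM-2a with either other line, so the numbers were not taken as pairs.

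The alternatives were a replicate block, only the 4 arrays of both lines compared, the dimmest clusters left out, all clusters tested, 1 cluster per symbol, another quantile or median normalisation, eBayes with trend and robust options, the lower cluster of a gene, a 1.5-fold minimum and each array left out. A crossed replicate block was added after seeing the data. These settings are not independent of each other. For every gene of the set but DKK3, the lower cluster is the cluster already used, so that setting cannot change its call. Leaving out an array of the line not compared gives the same fit as only the 4 arrays of both lines compared.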

Additional observations from a re-analysis of the deposited data

Results flagged for a closer look

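For 12 genes that passed the test in at least 1 derivative against MDA-MB-231, the effects in the derivatives differed by the test of the difference itself, 231BrM-2a over 231BoM-1833, since the parental arrays cancel in it. The log2 differences were 2.47 for DAAM2, 1.57 for LRP5, 1.33 for FZD3, 1.15 for WNT5A, 1.02 for TCF7L1, 0.83 for WNT3, 0.81 for TCF7L2, 0.69 for DAAM1, 0.46 for FZD9 and 0.41 for DKK1, with adjusted p-values (limma) of 8.86e-06, 3.42e-05, 0.000117, 0.00276, 0.000138, 0.00195, 0.000542, 0.017, 0.027 and 0.0251 in that order. The difference was -1.58 for LEF1 (adjusted p = 0.000353) and -1.19 for LGR4 (adjusted p = 0.000918). In each of the 12, both arrays of 1 derivative lay on the same side of both arrays of the other. The genes were picked by the test of that same difference, so this separation adds no support to it. The share of all clusters that would be picked in the same way was not computed, so the count of 12 has no background beside it. FZD3 and DAAM2 lay on opposite sides of MDA-MB-231 in the derivatives. Between the derivatives, the calls of DAAM1, FZD9 and DKK1 are those that were lost when some single array was left out. Against MDA-MB-231, the calls of FZD3, FZD9, DKK1 and DAAM1 in 231BoM-1833 were lost in that way. So were those of DAAM2, WNT3 and TCF7L2 in 231BrM-2a, so the opposite sides of FZD3 and DAAM2 each rest on a call of that kind. Groups of 2 arrays were too small to look for an array far from its group.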

How the results depend on the processing

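Over all 35 calls of single genes, 17 held under the 16 alternatives other than a 1.5-fold minimum, 18 were lost in at least 1 fit without 1 array, and 15 were lost with all clusters tested, unnamed ones included. The direction turned once, for DKK3 between the derivatives, at 0.013 with its other cluster. Without 1 array the counts of genes called ranged from 5 to 10 higher and 2 to 3 lower in 231BrM-2a against MDA-MB-231, from 0 to 3 higher and 2 to 5 lower in 231BoM-1833 against MDA-MB-231, and from 7 to 13 higher and 2 to 4 lower in 231BrM-2a against 231BoM-1833. In 231BoM-1833 against MDA-MB-231, where 2 were higher and 5 lower, 1 was higher with only the arrays of both lines, 0 higher and 2 lower with all clusters tested, and 1 higher and 1 lower with the 1.5-fold minimum. In 231BrM-2a against 231BoM-1833, where 13 were higher and 4 lower, 7 were higher and 2 lower with all clusters tested, and 2 lower with the 1.5-fold minimum. The cause was not tested, apart from the fewer arrays, the larger number of clusters and the added minimum by which these settings are made. With a replicate block, although the numbers do not pair the samples, the counts were 9 higher and 2 lower in 231BrM-2a against MDA-MB-231, 2 higher and 5 lower in 231BoM-1833 against MDA-MB-231, and 13 higher and 4 lower between the derivatives. With the numbers of 231BrM-2a crossed, the first count was 10 and the others were as before. With 2 arrays a line and no background level given, small differences of dim clusters cannot be resolved.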
